A study of Drosophila melanogaster with 12 samples.

Results

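The cytosolic ribosomal protein genes of Drosophila melanogaster were taken from a deposited expression table of adult heads as every row whose gene name starts with RpL (large subunit) or RpS (small subunit), with the capital R first so that the mitochondrial mRpL and mRpS genes are left out. The rule gave 92 of 15104 genes, 54 named for the large and 38 for the small subunit. RpL10Ab, the gene of the protein that carried the purification tag, is described apart, which leaves 91 members.

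Each ribosomal protein occupies a fixed place beside the ribosomal RNA, and a ribosome needs about equal numbers of nearly all of them. Their messages are among the most abundant in most cells, and in animals they carry a short pyrimidine-rich start that lets the TOR pathway hold them on or off ribosomes as a group. In flies, loss of 1 copy of many of these genes gives the slow-growing, thin-bristled Minute flies, and several genes have a second copy used mainly in the germ line.

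The 6 groups were an IP and an Input for each of 3 cell types. Fat body samples had the genotype UAS-GFP-L10A/+;takeout-Gal4/+, neuron samples Elav-Gal4/+;UAS-GFP-L10A/+ and glia samples repo-Gal4/+;UAS-GFP-L10A/+, all adult and in the 2202U background. A Gal4 driver switched on GFP-tagged L10A in its cells, lysate of 1000 heads was incubated with an antibody to GFP to give the IP, and some lysate set aside before the antibody gave the Input. All 6 groups therefore carried the transgene beside the fly's own L10A. Every group had 2 biological replicates, and each of the 12 libraries was a pool of 4 technical replicates read from polyA RNA. An Input holds RNA of the whole head, and the labels name no sex and no age beyond adult.

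The deposited table gives 1 FPKM value per gene and group, made by the authors from the pair of replicates. The values below therefore have no spread, and the depth behind them is unknown. FPKM counts sequenced fragments per length of transcript and per depth of the library, so levels of different genes may be compared within a group. The sum over all genes was 1704813 FPKM in IP and 578807 in Input of fat body, 839267 in IP and 636575 in Input of neuron, and 839886 in IP and 570917 in Input of glia. The columns are therefore on different scales. Values between columns are as deposited unless another scale is named, and the main ratios are also given under median scaling and total scaling. In median scaling each column was divided by its median ratio, over 5599 well-measured genes, to the gene's mean over the 6 groups. In total scaling the sums outside the ribosomal protein genes were made equal. Log2 ratios are of FPKM + 1.

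The driver labels were set against 3 marker lists on the deposited scale. Fat body markers, such as the yolk protein gene Yp1 and the lipid droplet gene Lsd-1, were at least 2-fold higher in IP than in Input of fat body for 7 of 7 genes, although their median log2 ratio of 1.37 became -0.11 under total scaling. Glial markers were at least 2-fold higher in IP than in Input of glia for 6 of 7 genes, with repo at 141 FPKM in IP and 22.4 in Input, and their median of 1.41 stayed above 0 at 0.91 and 0.67 under median and total scaling. Neuronal markers went against the label, since 0 of 7 were at least 2-fold higher in IP than in Input of neuron and 6 were at least 2-fold lower, with elav at 3.48 FPKM in IP and 15.0 in Input. Between IPs, the authors' deposited table called 3 of the 7 neuronal markers higher in neuron IP than in glia IP (n-syb, Syt1 and brp) and 0 lower. Only 1 of the 7, n-syb, was called higher in neuron IP than in fat body IP. The same 3 markers were called higher in fat body IP than in glia IP. The takeout gene to, whose driver marks the fat body here, was at 44.4 FPKM in IP and 12.5 in Input of fat body, but also at 55.8 in IP and 9.32 in Input of glia. Muscle markers were at least 2-fold lower in the IP for 3 of 4 genes in fat body, 2 in neuron and 4 in glia.

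RpL10Ab was far above the median of its family in every IP and close to it in every Input. It had 44378 FPKM in IP and 2273 in Input of fat body, 7705 in IP and 2083 in Input of neuron, and 21969 in IP and 2353 in Input of glia. The IP values were 7.37, 4.79 and 12.1 times the median abundant member in fat body, neuron and glia, against 1.16, 1.05 and 1.15 times in the Inputs. By FPKM it ranked at position 3 of all genes in fat body IP, 9 in neuron IP and 1 in glia IP, against positions 39, 55 and 40 in the matching Inputs. Its log2 IP/Input was 4.29 in fat body, 1.89 in neuron and 3.22 in glia as deposited, and 2.80, 1.31 and 2.47 under total scaling. In the authors' deposited table RpL10Ab rose in fat body IP over neuron IP (q = 0.000213) and fell in neuron IP against glia IP (q = 0.000636). Between fat body IP and glia IP it did not pass (q = 0.181), at a ratio of 1.01 on the log2 scale. Reads of the GFP-L10A transgene and of the endogenous gene cannot be told apart in these values.

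Among the other 91 members, 77 had at least 500 FPKM in every group and are called abundant, 8 stayed under 10 FPKM in every group, and 6 lay between. These limits were set after the levels had been seen, and the highest intermediate member, RpL34a, reached 1631 FPKM in IP against 419.6 in Input of fat body. No member was listed at 0 in any group. The median abundant member had 6024 FPKM in IP and 1968 in Input of fat body, 1608 in IP and 1993 in Input of neuron, and 1821 in IP and 2044 in Input of glia. The fat body IP thus stood above the other 5 columns, which lay close together. Of the 100 genes with the highest FPKM, members made up 68 in IP and 72 in Input of fat body, 37 in IP and 70 in Input of neuron, and 49 in IP and 72 in Input of glia.

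**Figure D1:**
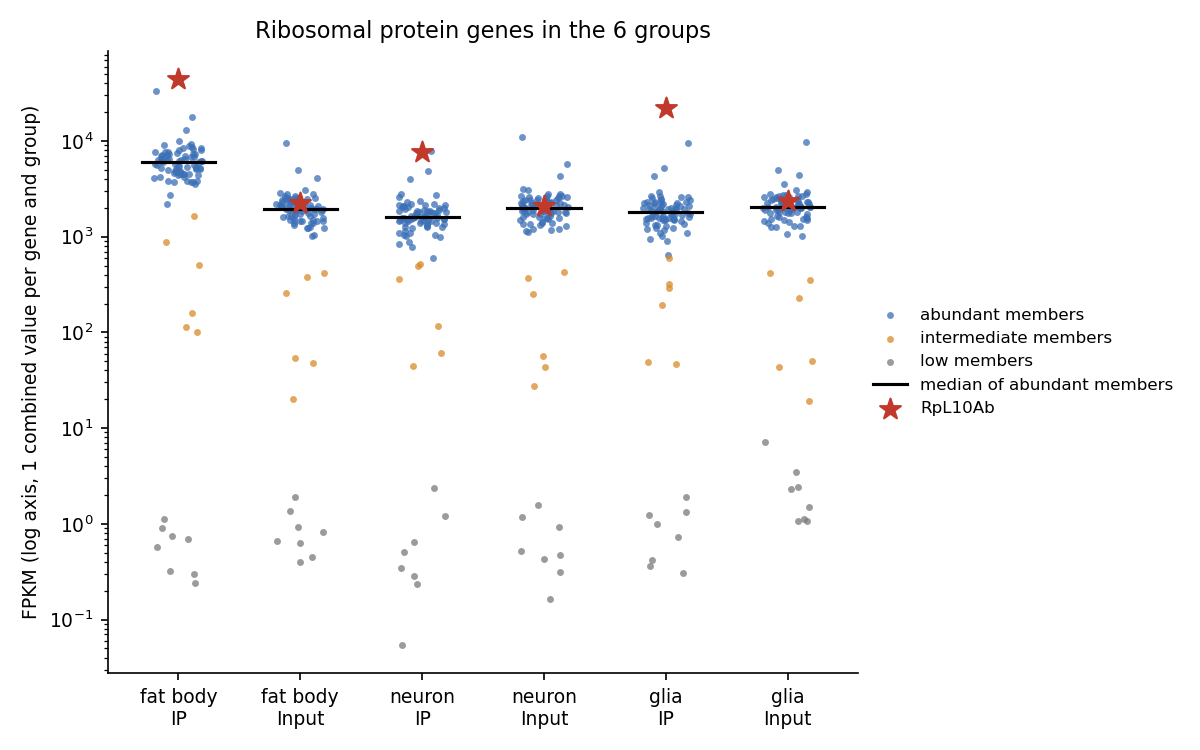
FPKM of the 92 ribosomal protein genes in the 6 groups, on a log axis, with 1 combined value per gene and group, the black bar at the median of the 77 abundant members and the star at RpL10Ab. The abundant members lie as a band with medians of 1608 to 2044 FPKM in 5 groups and 6024 in the fat body IP, and RpL10Ab lies inside the band in the Inputs and above its median in the IPs.

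At the top of the family stood RpL41, RpL39, RpS25, RpLP2 and RpL29. RpL41, the smallest ribosomal protein, led in every group, with 33424 FPKM in IP and 9432 in Input of fat body, 7848 in IP and 10970 in Input of neuron, and 9609 in IP and 9676 in Input of glia. RpL39, which lines the tunnel through which the new protein leaves, had 17677 FPKM in IP and 4967 in Input of fat body, 4804 in IP and 5708 in Input of neuron, and 5278 in IP and 5013 in Input of glia. RpS25, a small-subunit protein next to the tRNA exit site, had 13070 FPKM in IP and 4056 in Input of fat body, 4010 in IP and 4303 in Input of neuron, and 4343 in IP and 4426 in Input of glia. All 3 had their highest deposited FPKM in the fat body IP, the column with the largest sum. The lowest abundant member was RpLP0 in the 3 IPs and the glia Input, RpL27 in the neuron Input and RpS27 in the fat body Input. The subunits were close, since the 46 abundant large-subunit genes had a median of 5756 FPKM and the 31 small-subunit genes 6165 in fat body IP, with 1619 and 1588 FPKM in neuron IP and 1796 and 1821 FPKM in glia IP.

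In the fat body, ribosomal protein messages were more abundant in the IP than in the Input on the deposited scale, and in neuron and glia slightly less abundant. In the fat body IP 81 of 91 members were at least 2-fold above the Input (89.0%), against 27.5% of all 11117 genes compared, and 0 were at least 2-fold below it, against 10.2%. In the neuron IP 2 members were at least 2-fold above the Input (RpS10a and RpS15Ab), against 19.0% of genes, and 0 below it, against 13.1%. In the glia IP 2 members were above (RpLP0-like and RpS15Ab), against 18.7% of genes, and 1 below (RpL10Aa), against 19.7%. These comparisons have no q in the table and no replicate values, so no test of them could be run. In material from whole heads, fewer cells of a type and less RNA per cell cannot be told apart.

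The abundant members had similar ratios within each cell type. Their median log2 IP/Input was 1.61 in fat body (range 0.88 to 2.25), -0.30 in neuron (-0.95 to 0.17) and -0.17 in glia (-0.80 to 0.12), against 0.82, 0.40 and 0.49 over 5599 genes that reached 5 FPKM in all 6 groups. All 77 were above 0 in fat body, 71 were below 0 in neuron and 70 were below 0 in glia. The neuron members above 0 were RpL24, RpL29, RpL36, RpL40, RpS21 and RpS30, all at 0.17 or less. Median scaling moved the 3 family medians to 0.74, -0.89 and -0.68, against -0.007, -0.15 and 0.007 over the 5599 genes. Total scaling moved the family medians to 0.12, -0.88 and -0.92, against -0.59, -0.14 and -0.22. The family median lay above that of the 5599 genes in fat body and below it in neuron and glia. A scaling shifts both medians nearly alike, so this order could not differ between the 3 scales. The direction of IP against Input in fat body depends on the scale, because under total scaling 58 members lay above and 19 below 0. Under total scaling 0 members were 2-fold higher and 2 were 2-fold lower in fat body, against 467 and 4834 of all 11117 genes. In neuron and glia 77 of 77 members lay below 0 under both scalings. Both shift every ratio there downward, so they could not have reversed the direction of these family medians.

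**Figure D2:**
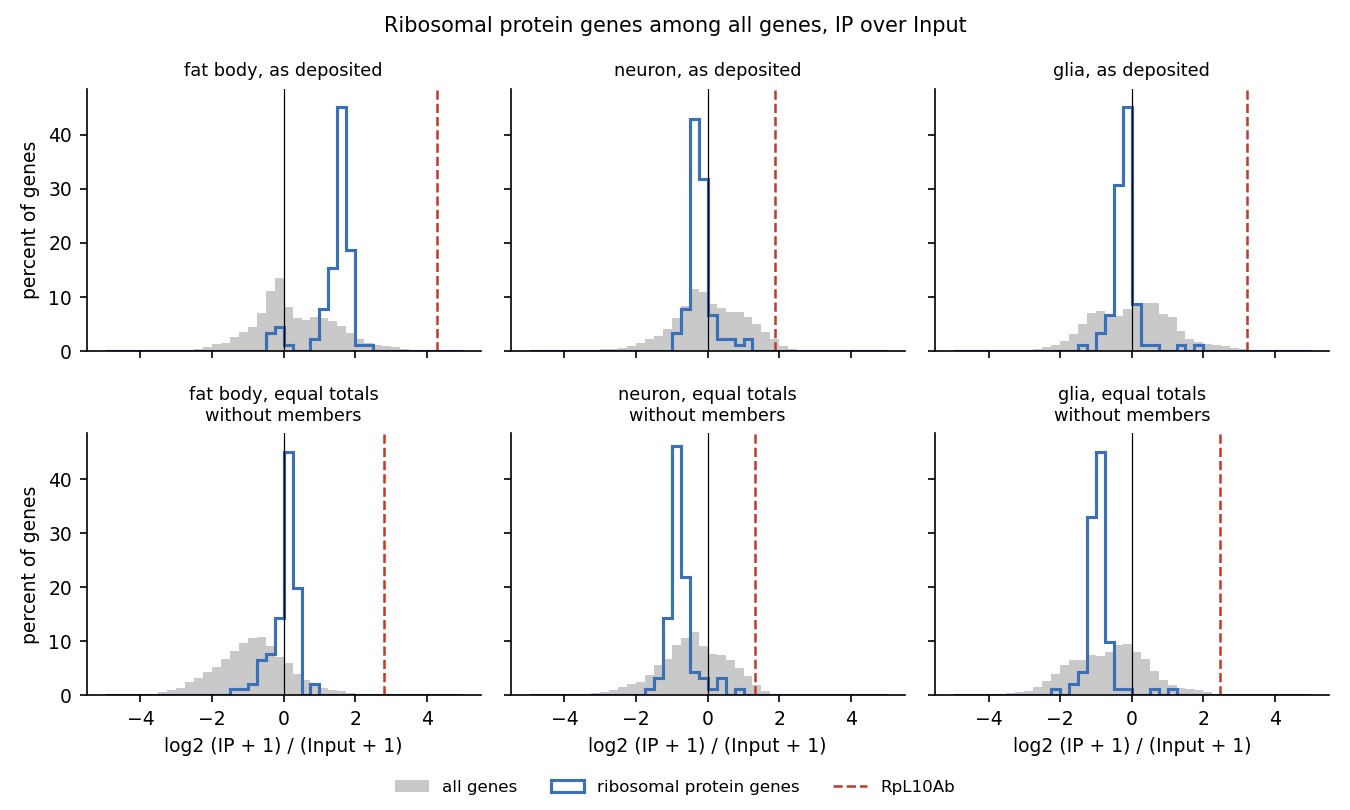
Distribution of log2 (IP + 1)/(Input + 1) of the 91 ribosomal protein genes (blue outline) and of all analysed genes (grey) in fat body, neuron and glia, in percent of genes per bin, as deposited (top) and with equal sums outside the family (bottom), with RpL10Ab as a dashed line. The abundant members form a peak at a median of 1.61 in fat body as deposited and of 0.12 with equal sums, against -0.30 and -0.88 in neuron and -0.17 and -0.92 in glia.

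The family's share of each column's FPKM sum does not depend on the scale. Without RpL10Ab, the 91 members held 29.7% of the sum in IP and 28.5% in Input of fat body, 16.6% in IP and 26.6% in Input of neuron, and 18.3% in IP and 30.4% in Input of glia. As ratios of IP to Input these shares were 1.04 in fat body, 0.623 in neuron and 0.603 in glia. RpL10Ab alone held 2.60% of the sum in IP and 0.393% in Input of fat body, 0.918% in IP and 0.327% in Input of neuron, and 2.62% in IP and 0.412% in Input of glia.

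Between the IPs, ribosomal protein messages rose together in fat body over both other cell types. The authors' deposited table, where a q-value under 0.05 is taken as passing, called 79 of 91 members higher in fat body IP than in neuron IP (86.8%) and 0 lower, against 12.0% and 9.38% of all genes. It called 82 of 91 members higher in fat body IP than in glia IP (90.1%) and 0 lower, against 31.9% and 13.0% of all genes. Between neuron IP and glia IP it called 0 members higher and 2 lower, RpL10Aa and RpS19b, against 15.6% and 15.4% of all genes. The shares among genes at levels like those of the members were not computed. All 77 abundant members passed in each of the fat body comparisons, which share the fat body IP. In the authors' deposited table their q-values ran up to 0.00708 against neuron IP and up to 5.53e-07 against glia IP, where 18 members are listed at 0, and were 0.303 or more between neuron IP and glia IP.

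The median abundant member was 1.88 higher on the log2 scale in fat body IP than in neuron IP and 1.75 higher than in glia IP, and 0.15 lower in neuron IP than in glia IP. Under total scaling these medians were 1.14, 0.95 and -0.21, and 77 of 77 members stayed above 0 in both fat body comparisons under every scaling. Against neuron IP the highest ratios were those of RpLP2 (2.25), RpS21 (2.23) and RpS27 (2.19), and the lowest among members that passed those of RpS30 (1.25), RpS14b (1.29) and RpL36 (1.36). Against glia IP, RpL30 (2.02) and RpS27 (1.96) were among the highest, while RpL24-like (0.80), RpL7-like (1.01) and RpL22 (1.17) were lowest among members that passed. As a share of the column sum, the family was 1.79 times as large in fat body IP as in neuron IP, 1.62 times as large as in glia IP, and 0.904 times as large in neuron IP as in glia IP.

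Before purification the 3 lysates were close for these genes as deposited. The abundant members differed by a median of -0.02 on the log2 scale between fat body Input and neuron Input (SD over members 0.0895), by -0.07 between fat body Input and glia Input (0.0715) and by -0.06 between neuron Input and glia Input (0.121). Median scaling widened these differences to 0.14, -0.17 and -0.32, and total scaling to 0.15, -0.13 and -0.29, with the sign flipped between fat body Input and neuron Input. Under total scaling 72 of 77 members were higher in fat body Input than in neuron Input, and 75 of 77 were lower in neuron Input than in glia Input. Their order was nearly fixed, with Spearman correlations of log2 FPKM across the 77 genes of 0.955 to 0.983 between Inputs and 0.880 to 0.955 between IPs. These are descriptions over genes of 1 value each, and the genes are not independent. At 2-fold on the deposited scale, 0 members were higher and 0 lower in fat body Input than in neuron Input, against 0.422% and 0.521% of all genes. In fat body Input 0 were higher and 1 lower than in glia Input (RpL10Aa), against 0.332% and 8.0%. In neuron Input 0 were higher and 3 lower than in glia Input (RpL10Aa, RpS19b and RpS28-like), against 0.988% and 10.2%.

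The order of the members within the block was examined as log2 IP/Input minus the median of the 77, a value that does not move with the scale of a column. In all 3 cell types 25 members lay above their median and 24 lay below it, 25 changed side, and 3 (RpS13, RpS24 and RpL27) were themselves the median in 1 cell type and on 1 side of it in the others. Most differences were small, with 53 of 77 within 0.25 and 73 within 0.5 in every cell type, and the 4 exceptions were RpLP0, RpL5, RpS20 and RpS21. Across the 77 genes the relative values correlated with Spearman's rho of 0.35 between fat body and neuron, 0.67 between fat body and glia, and 0.56 between neuron and glia. The points are single combined values, and the cell types share neither IP nor Input libraries.

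The stalk proteins, which reach out from the large subunit and recruit the translation factors that use GTP, had RpLP0 and RpLP1 below the family median of IP/Input in all 3 cell types. RpLP0, the base of the stalk, had 2185 FPKM in IP and 1052 in Input of fat body, 599 in IP and 1161 in Input of neuron, and 639 in IP and 1008 in Input of glia. Relative to the family it was the lowest member in neuron (-0.65) and stood at -0.55 in fat body and -0.49 in glia. RpLP1, which binds RpLP0 as a pair with RpLP2, had 7331 FPKM in IP and 2767 in Input of fat body, 1660 in IP and 2778 in Input of neuron, and 2225 in IP and 3080 in Input of glia. Its relative values of -0.20, -0.44 and -0.30 in fat body, neuron and glia were negative throughout. RpLP2, at 9939 FPKM in IP and 3068 in Input of fat body, 2093 in IP and 3146 in Input of neuron, and 2922 in IP and 3593 in Input of glia, was mixed, with relative values of 0.09, -0.28 and -0.13.

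Other members at the bottom came from different places in the ribosome. RpL5, which carries the 5S ribosomal RNA into the large subunit together with RpL11, had 4557 FPKM in IP and 2482 in Input of fat body, 1629 in IP and 2557 in Input of neuron, and 1755 in IP and 2472 in Input of glia. It was the only abundant member under 2-fold in fat body, at 0.88, and its relative values were -0.73, -0.35 and -0.32 in fat body, neuron and glia. Its partner RpL11 stood closer to the family, at -0.03, -0.17 and -0.15. RpS20, in the head of the small subunit, had 3781 FPKM in IP and 1624 in Input of fat body, 1032 in IP and 1545 in Input of neuron, and 1029 in IP and 1791 in Input of glia. It was the lowest member in glia, at -0.63, with -0.39 in fat body and -0.28 in neuron. RpS29, a zinc-binding protein also in the head, stood at -0.31, -0.47 and -0.40.

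At the other end stood RpS21, a small-subunit protein whose loss gives overgrown blood-forming organs in fly larvae. It had 7453 FPKM in IP and 1570 in Input of fat body, 1588 in IP and 1562 in Input of neuron, and 1968 in IP and 1810 in Input of glia. RpS21 had the highest relative value in fat body and in glia (0.64 and 0.29) and 0.33 in neuron. RpL24, which forms a bridge to the small subunit, had 5124 FPKM in IP and 1474 in Input of fat body, 1446 in IP and 1396 in Input of neuron, and 1678 in IP and 1545 in Input of glia. Its relative values were 0.19, 0.35 and 0.29. RpL8, next to the catalytic centre, stood at 0.19, 0.19 and 0.22.

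**Figure D3:**
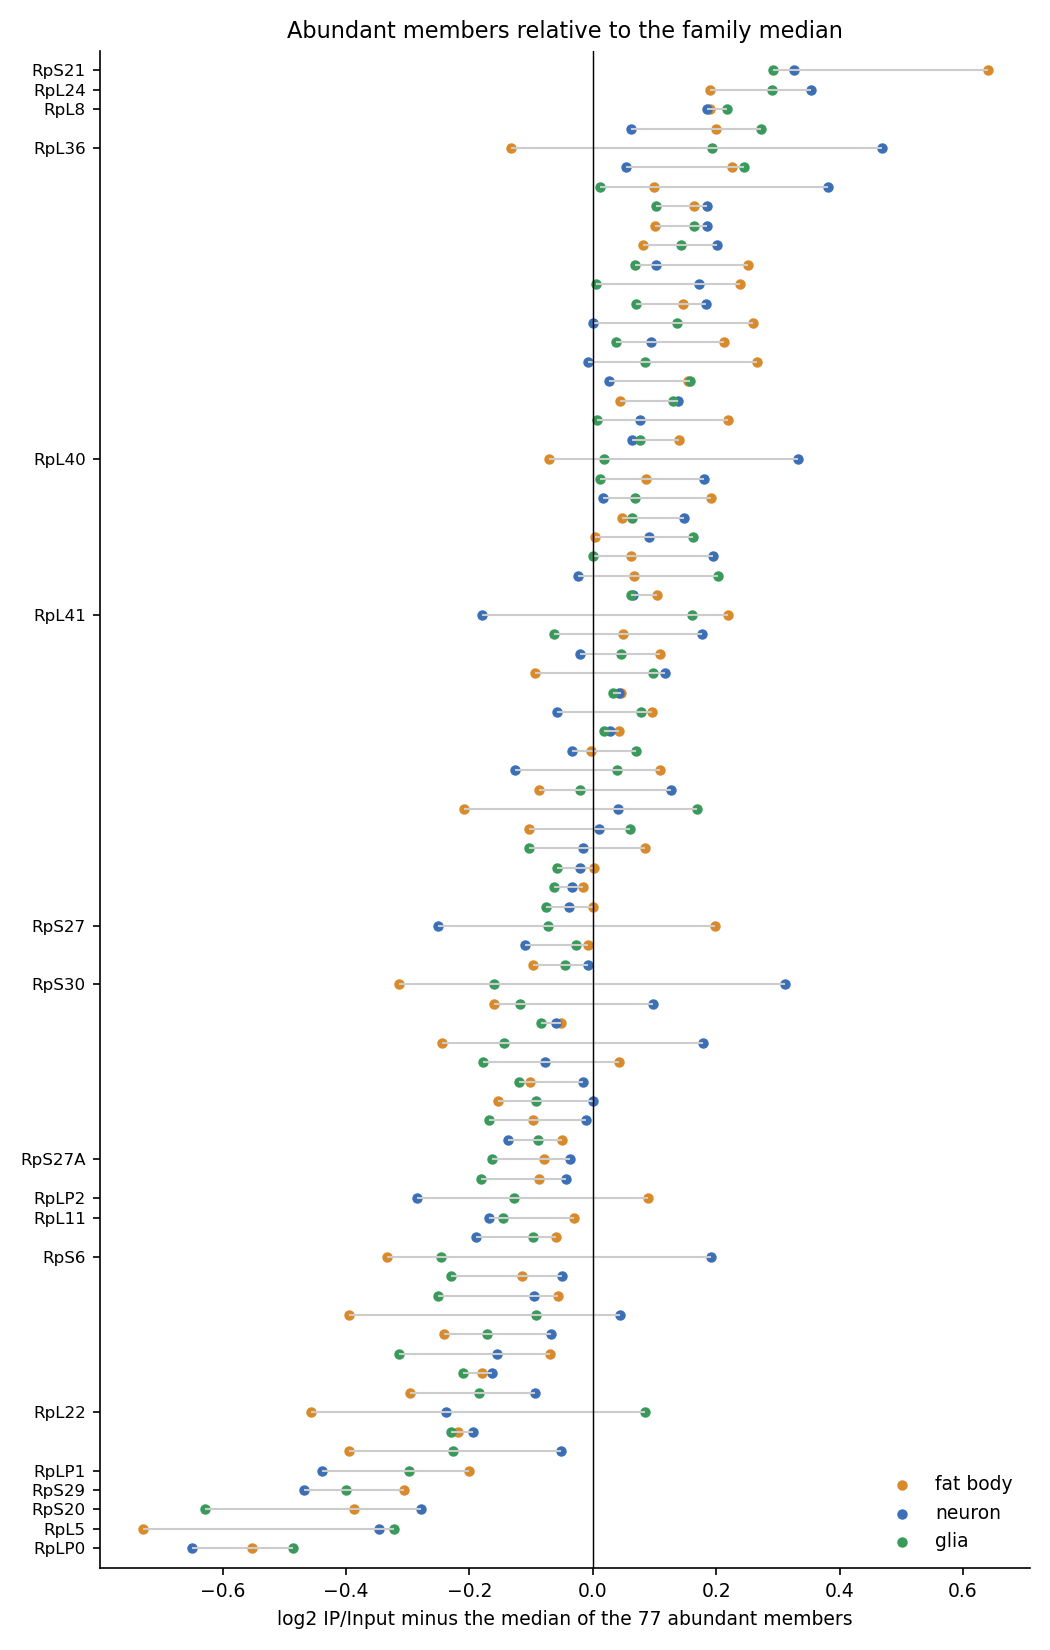
Log2 IP/Input of each of the 77 abundant members minus the median of the 77, in fat body (orange), neuron (blue) and glia (green), ordered by the mean of the 3 values, with a grey line over their range and names on the axis for members whose relative values are given. RpS21 is at the top and RpLP0 at the bottom, and 53 members lie within 0.25 of the median in all 3 cell types.

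A few members sat on opposite sides of the family in different cell types. RpS30, made as a fusion to a ubiquitin-like protein, had 6194 FPKM in IP and 2530 in Input of fat body, 2602 in IP and 2586 in Input of neuron, and 2078 in IP and 2615 in Input of glia. Its relative value was -0.31 in fat body, 0.31 in neuron and -0.16 in glia, a difference of -0.63 between fat body and neuron. RpS6, the small-subunit protein phosphorylated by S6 kinase below TOR, had 4852 FPKM in IP and 2009 in Input of fat body, 1729 in IP and 1867 in Input of neuron, and 1570 in IP and 2098 in Input of glia. It stood at -0.33, 0.19 and -0.25 in the same order. RpL36 differed in the same direction, at -0.13, 0.47 and 0.19. RpL41 and RpS27 ran the other way, with RpL41 at 0.22, -0.18 and 0.16 and RpS27 at 0.20, -0.25 and -0.07. RpL22, a large-subunit protein with a long fly-specific extension, stood at -0.46, -0.24 and 0.08, with 2715 FPKM in IP and 1223 in Input of fat body, 829 in IP and 1207 in Input of neuron, and 1205 in IP and 1280 in Input of glia. None of these differences could be tested.

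Of the ubiquitin fusions, RpS27A was near the middle in every cell type and RpL40 stood above it in neuron. RpS27A, made as a fusion of ubiquitin with a small-subunit protein, had relative values of -0.08, -0.04 and -0.16 in fat body, neuron and glia. RpL40, the fusion of ubiquitin with a large-subunit protein, stood at -0.07, 0.33 and 0.02. RpL40 had 6024 FPKM in IP and 2079 in Input of fat body, 2312 in IP and 2265 in Input of neuron, and 2023 in IP and 2250 in Input of glia.

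The 6 intermediate members are second copies or relatives of an abundant gene, and their share of the pair differed between IP and Input. Copies that share sequence may share reads, so each share is uncertain where the coding sequences are close. RpS15Ab made up 2.56% of RpS15Ab and RpS15Aa in IP and 2.53% in Input of fat body, 7.06% in IP and 2.59% in Input of neuron, and 10.0% in IP and 2.37% in Input of glia. This share was higher in the IP than in the Input in neuron and glia and nearly equal in fat body. RpS15Ab passed in 0 of the 3 IP comparisons of the authors' deposited table (q = 0.673 for fat body against neuron, 0.278 for fat body against glia and 0.426 for neuron against glia). In FPKM it was at 160 in IP and 54.0 in Input of fat body, 116 in IP and 57.2 in Input of neuron, and 194 in IP and 50.8 in Input of glia.

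RpLP0-like, RpL24-like and RpL7-like are named after ribosomal proteins, and their counterparts in yeast are assembly factors that leave before the ribosome is finished. RpLP0-like had 114 FPKM in IP and 20.1 in Input of fat body, 44.5 in IP and 27.4 in Input of neuron, and 46.6 in IP and 19.0 in Input of glia. It made up 4.97% of its pair with RpLP0 in IP and 1.87% in Input of fat body, 6.92% in IP and 2.30% in Input of neuron, and 6.80% in IP and 1.85% in Input of glia. The annotation places RpLP0-like over Jra, a transcription factor gene, which was at 43.3 FPKM in IP and 23.5 in Input of fat body, 61.3 in IP and 24.8 in Input of neuron, and 53.7 in IP and 22.0 in Input of glia. Its part in the RpLP0-like values was not tested.

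RpL24-like had its highest share in the neuron IP and its lowest in the fat body IP. It had 506 FPKM in IP and 260.2 in Input of fat body, 496 in IP and 253 in Input of neuron, and 290.1 in IP and 227 in Input of glia. The share of RpL24-like in its pair with RpL24 was 8.99% in IP and 15.0% in Input of fat body, 25.5% in IP and 15.3% in Input of neuron, and 14.7% in IP and 12.8% in Input of glia. In the authors' deposited table RpL24-like passed in fat body IP over glia IP (q = 4.12e-06) and not in fat body IP against neuron IP (q = 0.988). RpL7-like followed the same order at lower shares, with 1.76% of its pair in IP and 2.44% in Input of fat body, 3.89% in IP and 2.18% in Input of neuron, and 2.91% in IP and 2.14% in Input of glia.

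RpL34a and RpS14b held the largest shares of their pairs in the Inputs. RpL34a made up 26.6% of RpL34a and RpL34b in IP and 23.9% in Input of fat body, 29.3% in IP and 24.0% in Input of neuron, and 30.4% in IP and 22.0% in Input of glia. RpS14b made up 19.0% of RpS14b and RpS14a in IP and 20.5% in Input of fat body, 20.7% in IP and 19.8% in Input of neuron, and 17.2% in IP and 15.6% in Input of glia. RpL34a and RpS14b were the intermediate members that rose in fat body IP over neuron IP in the authors' deposited table (q = 0.000373 and 0.00626).

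**Figure D4:**
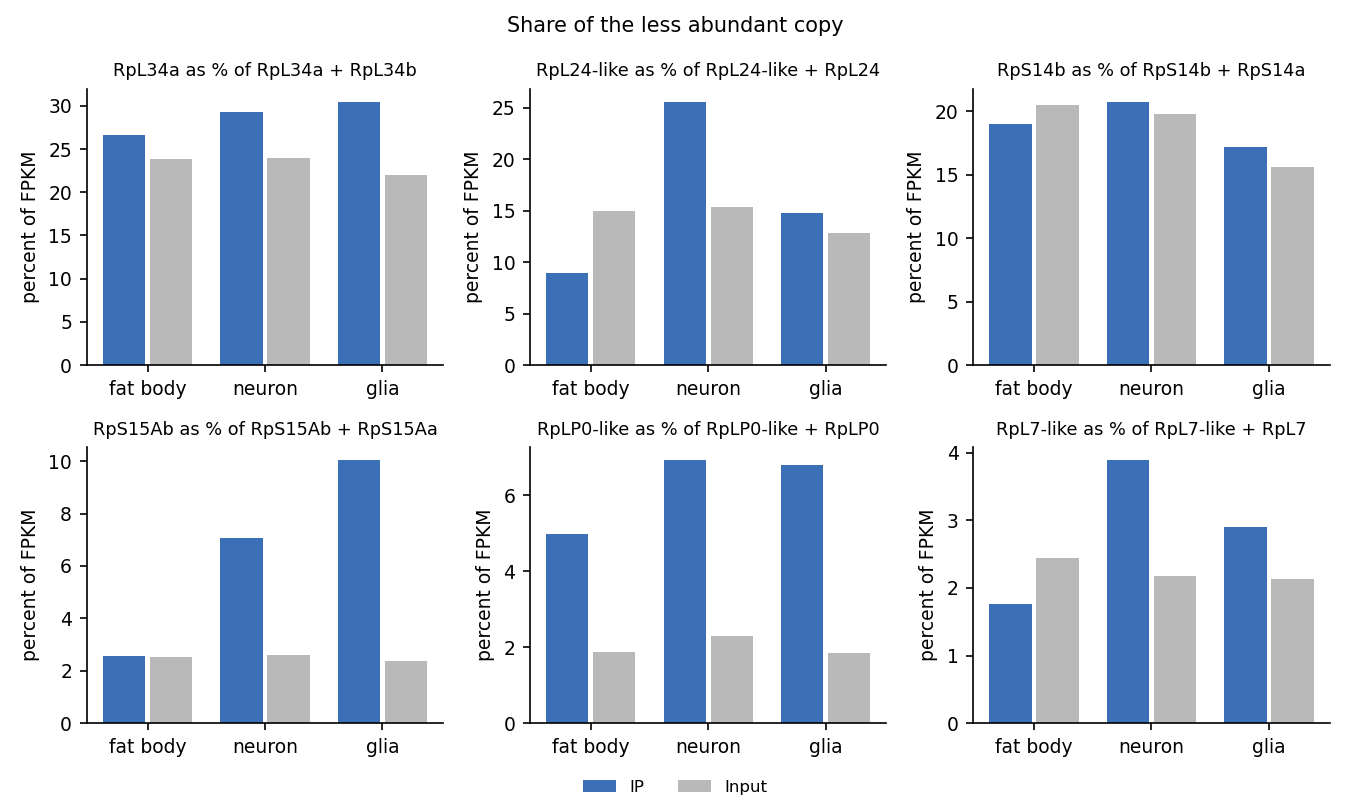
Share of the less abundant copy in the summed FPKM of 6 pairs, in percent, with the IP (blue) beside the Input (grey) of fat body, neuron and glia and each axis starting at 0. RpS15Ab reaches 10.0% in the glia IP against 2.37% in the glia Input, and RpL24-like reaches 25.5% in the neuron IP against 15.3% in the neuron Input.

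The 8 low members, RpL10Aa, RpL22-like, RpL37b, RpS5b, RpS10a, RpS19b, RpS28a and RpS28-like, are second copies, several of them known in flies from testis or ovary. Each was under 1% of its pair in every group. Their summed FPKM was 4.92 in IP and 7.16 in Input of fat body, 5.66 in IP and 5.57 in Input of neuron, and 7.29 in IP and 20.0 in Input of glia. Among the Inputs all 8 were highest in the glia Input, and all 8 were lower in the glia IP than there. The shares of all genes, or of genes at similar levels, with these patterns were not computed. At 2-fold, 10.2% of all genes were lower in neuron Input and 8.0% in fat body Input than in glia Input. In the glia IP 19.7% were 2-fold lower than in its Input. RpL10Aa, the second copy of the tagged gene, was the highest of the 8 low members outside the neuron IP, at 1.12 FPKM in IP and 1.92 in Input of fat body, 0.347 in IP and 1.57 in Input of neuron, and 1.89 in IP and 7.10 in Input of glia. In the authors' deposited table RpL10Aa and RpS19b fell in neuron IP against glia IP (q = 0.0138 and 0.0363). At these levels a value may rest on few reads, and the depth is not known.

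RpS10a was highest in the neuron IP, with 0.297 FPKM in IP and 0.631 in Input of fat body, 2.38 in IP and 0.524 in Input of neuron, and 0.359 in IP and 1.07 in Input of glia. RpS10a passed in 0 of the 3 IP comparisons of the authors' deposited table (q = 0.803 for fat body against neuron, 0.987 for fat body against glia and 0.846 for neuron against glia). The annotation places RpS10a over tau, a gene for a microtubule-binding protein, which was at 14.0 FPKM in IP and 50.4 in Input of fat body, 43.9 in IP and 67.2 in Input of neuron, and 20.1 in IP and 40.7 in Input of glia. Its part in the RpS10a values was not tested.

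Like the low members, a pair of testis markers was highest in the glia Input. Of 5 such markers, bam, nos and vas stayed under 1 FPKM in every group. Among the Inputs bam and nos were also highest in glia. The marker vas went the other way, at 0.282 FPKM in the glia Input, 0.590 in the neuron Input and 0.342 in the fat body Input. The sperm tail gene Mst87F was at 15.5 FPKM in IP and 22.3 in Input of fat body, 6.29 in IP and 18.3 in Input of neuron, and 31.9 in IP and 94.8 in Input of glia. The sperm gene dj was at 1.60 FPKM in IP and 8.65 in Input of fat body, 0.357 in IP and 6.35 in Input of neuron, and 2.66 in IP and 26.5 in Input of glia. The summed level of the 5 markers was 17.5 FPKM in IP and 31.3 in Input of fat body, 7.05 in IP and 25.3 in Input of neuron, and 34.8 in IP and 122 in Input of glia. In neuron the marker sum was lower in the IP than in the Input while the sum of the low members was nearly equal. Their part in the low members' values was not tested.

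**Figure D5:**
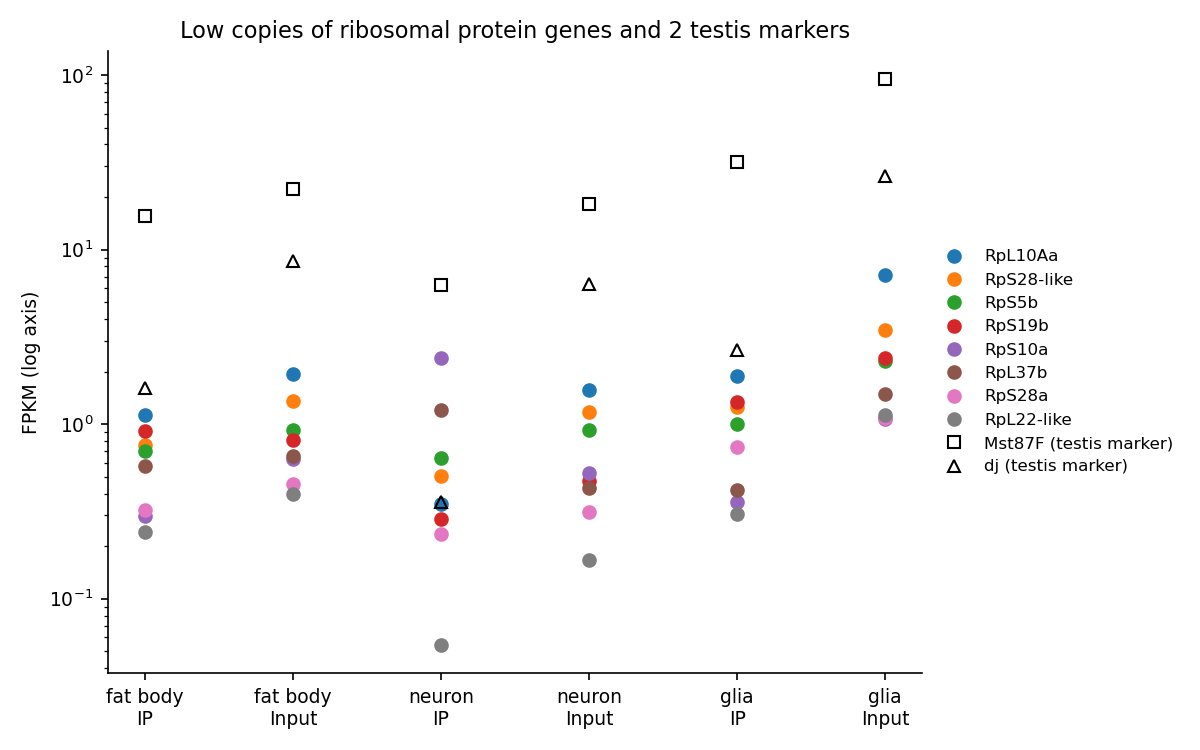
FPKM of the 8 low members (filled circles) and of the testis markers Mst87F (open squares) and dj (open triangles) in the 6 groups, on a log axis, with 1 combined value per gene and group. All 8 members and both markers are higher in the glia Input than in the other Inputs, with RpL10Aa at 7.10 FPKM and Mst87F at 94.8.

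The members share features that the naming rule did not use. A later annotation of the fly genome than the one behind the table held 87 of them by gene identifier and 5 more by symbol. They were spread over all arms, with 23 on 3R, 21 on 2R, 19 on 2L, 14 on 3L, 14 on X and 1, RpS3A, on 4. Coding sequences were short, with a median of 466.5 bases (75 for RpL41 to 1248 for RpL3) against 1253 bases over the coding genes analysed. Shorter genes tended weakly to have higher FPKM. Spearman's rho between coding length and log2 FPKM was -0.28 to -0.36 across the 77 abundant members in the 6 groups, which share the FPKM length correction. Coding length and relative IP/Input correlated at -0.29 in fat body, -0.11 in neuron and -0.14 in glia. Over 10824 genes, transcript length and log2 IP/Input correlated at -0.37, -0.29 and -0.27.

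Small nucleolar RNAs, which guide the modification of ribosomal RNA, are often cut from introns of ribosomal protein genes. Among the members 28 of 92 (30.4%) held a snoRNA gene in an intron, 72 such genes in all, against 77 of 13261 coding genes (0.581%). RpS5a held 14 and RpS7 held 7. The 27 abundant hosts and the 50 other abundant members had nearly equal median log2 IP/Input, at 1.60 and 1.63 in fat body, -0.32 and -0.28 in neuron and -0.16 and -0.18 in glia. A total of 25 members overlapped another coding gene. For 20 of these the other gene's values could be found, and in 12 it stayed under 10% of the member's FPKM in every group. RpL12 and RpL39 overlap each other, and the strand of the libraries is not given in the sources used here.

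The 2 ribosomal proteins in the table that the naming rule misses had deposited values within the range of the abundant members. The gene sta, for the small-subunit protein SA, had 4100 FPKM in IP and 1728 in Input of fat body, 1158 in IP and 1729 in Input of neuron, and 1335 in IP and 1849 in Input of glia. Rack1, the scaffold protein on the head of the small subunit, had 4105 FPKM in IP and 1463 in Input of fat body, 1165 in IP and 1404 in Input of neuron, and 1329 in IP and 1662 in Input of glia. Both rose in fat body IP over neuron IP (q = 5.68e-05 for sta and 1.03e-05 for Rack1) and over glia IP (q = 1.46e-10 and 1.59e-11) in the authors' deposited table. The median of their log2 IP/Input in fat body was 1.37 as deposited, but 0.50 under median scaling and -0.12 under total scaling.

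Genes for ribosome assembly and rDNA transcription were mostly above Input in the fat body IP as deposited. Of 29 genes in the table, RpLP0-like among them, 24 were at least 2-fold above Input in fat body, 2 in neuron and 3 in glia, and 0 were 2-fold below, against 27.5%, 19.0% and 18.7% of all genes above. Their median log2 IP/Input was 1.77, 0.37 and 0.46, against 0.82, 0.40 and 0.49 over the 5599 genes that reached 5 FPKM in all groups, so that only fat body stood above those genes. Under median scaling the list medians were 0.97, -0.19 and 0.04, and under total scaling 0.39, -0.18 and -0.17, so that the sign flipped in neuron and, under total scaling, in glia. Median scaling left 11 genes above Input in fat body and total scaling left 4, with 0 in neuron and glia. In neuron 2 genes were below Input under both. Of all 11117 genes compared in fat body, 1115 were above Input under median scaling and 467 under total scaling. The authors' deposited table called 9 of the 29 higher in fat body IP than in neuron IP and 29 of 29 higher in fat body IP than in glia IP. It called 1, the RNA polymerase I factor Tif-IA, higher in neuron IP than in glia IP, with 0 lower in each pair. Over all genes 12.0%, 31.9% and 15.6% were called higher in these pairs and 9.38%, 13.0% and 15.4% lower. Fibrillarin (Fib), the methyltransferase guided by snoRNAs, had 199.9 FPKM in IP and 33.6 in Input of fat body, 50.0 in IP and 41.5 in Input of neuron, and 44.1 in IP and 31.4 in Input of glia. The snoRNP protein gene hoip had 335 FPKM in IP and 47.2 in Input of fat body, 73.9 in IP and 70.0 in Input of neuron, and 89.8 in IP and 52.7 in Input of glia.

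The 14 regulators of ribosomal protein genes and messages were mostly near or below Input. At least 2-fold above Input were 2 in fat body (Rheb and Thor), 1 in neuron (CG9797, now M1BP) and 1 in glia (Rheb), and at least 2-fold below were 4, 6 and 5, with list medians of -0.12, -0.14 and -0.50. Over all genes 27.5%, 19.0% and 18.7% were above and 10.2%, 13.1% and 19.7% below. Median scaling moved the list medians to -0.89, -0.66 and -0.98, and total scaling moved them to -1.40, -0.65 and -1.19. Under total scaling 0, 1 and 0 of the 14 were 2-fold above Input and 9, 6 and 8 below. Of all 11117, 11119 and 11116 genes compared, 467, 791 and 799 were then above and 4834, 2796 and 4083 below. The gene larp, whose human counterpart binds the pyrimidine start of ribosomal protein messages, had 9.11 FPKM in IP and 40.7 in Input of fat body, 5.21 in IP and 62.5 in Input of neuron, and 5.15 in IP and 32.5 in Input of glia. S6k, the kinase of RpS6, had 16.3 FPKM in IP and 22.4 in Input of fat body, 2.94 in IP and 29.0 in Input of neuron, and 5.51 in IP and 18.7 in Input of glia. Thor, the translation inhibitor that TOR switches off, had 501 FPKM in IP and 222 in Input of fat body, 139.7 in IP and 134 in Input of neuron, and 329 in IP and 183 in Input of glia. In the authors' deposited table both S6k and Thor rose in fat body IP over neuron IP (q = 9.66e-05 and 0.000142), and Thor fell in neuron IP against glia IP (q = 0.02). That table called 4 of the 14 higher in fat body IP than in neuron IP and 6 higher in fat body IP than in glia IP. It called 1 higher and 2 lower in neuron IP than in glia IP. Over all genes 12.0%, 31.9% and 15.6% were called higher in these pairs, and 15.4% lower in neuron IP than in glia IP.

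The 34 translation factors included genes at least 2-fold above and genes at least 2-fold below Input in every cell type as deposited. At least 2-fold above Input were 18 in fat body, 3 in neuron and 3 in glia, and at least 2-fold below were 2, 4 and 5. The same shares over all genes were 27.5%, 19.0% and 18.7% above and 10.2%, 13.1% and 19.7% below. Their medians were 1.02, -0.22 and -0.14 as deposited and 0.16, -0.78 and -0.65 under median scaling. Under total scaling they were -0.44, -0.77 and -0.88, with the sign flipped in fat body. Under total scaling 1, 0 and 1 of the 34 were at least 2-fold above Input and 9, 13 and 15 below. Of all 11117, 11119 and 11116 genes compared, 467, 791 and 799 were then above and 4834, 2796 and 4083 below. The elongation factor gene Ef1alpha48D had 11055 FPKM in IP and 4158 in Input of fat body, 1545 in IP and 4350 in Input of neuron, and 2982 in IP and 3952 in Input of glia. Ef1alpha48D did not pass in any of the IP comparisons of the authors' deposited table. The q listed there is the highest possible in every pair and may stand for a gene that was not tested. The authors' deposited table called 11 of the 34 higher and 1 lower in fat body IP than in neuron IP. It called 24 higher and 0 lower in fat body IP than in glia IP, and 1 higher and 5 lower in neuron IP than in glia IP. Over all genes 12.0%, 31.9% and 15.6% were called higher in these pairs and 9.38%, 13.0% and 15.4% lower.

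Mitochondrial ribosomal proteins, which build the separate ribosome inside mitochondria, were mostly at least 2-fold above Input in neuron on all 3 scales, and in fat body only as deposited. At least 2-fold above Input were 69 of 71 in fat body, 68 in neuron and 7 in glia, against 27.5%, 19.0% and 18.7% of all genes. In each cell type 0 were 2-fold below, against 10.2%, 13.1% and 19.7%. The mitochondrial medians were 1.65, 1.71 and 0.62, against 1.61, -0.30 and -0.17 for the abundant cytosolic members. Under total scaling the mitochondrial medians were 0.18, 1.16 and -0.09, with the sign flipped in glia. The counts at least 2-fold above Input were then 0 in fat body, 50 in neuron and 0 in glia. Under median scaling they were 17, 49 and 0, with 1 gene 2-fold below in each cell type under both. Of all genes 467, 791 and 799 were above Input under total scaling, and 1115, 771 and 1064 under median scaling. The summed level of the 71 genes was 5844 FPKM in IP and 1843 in Input of fat body, 7757 in IP and 2287 in Input of neuron, and 2823 in IP and 1754 in Input of glia. In the authors' deposited table, members passing numbered 47 of 71 as higher in neuron IP than in glia IP and 66 as higher in fat body IP than in glia IP, while 0 passed between fat body IP and neuron IP. Over all genes 15.6% and 31.9% were called higher in the first pairs. Between fat body IP and neuron IP, 12.0% of all genes were called higher and 9.38% lower in fat body. The difference between the mitochondrial and cytosolic families in neuron was not tested.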

How the data were processed

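Per the labels, polyA RNA of adult fly heads was sequenced in 12 libraries, 2 replicates in each of 6 groups. Per the submitters' processing notes, TopHat2 2.0.6, Cufflinks 2.0.2 and Cuffdiff 2.0.2 were used with the BDGP5 genome. The authors deposited 1 table of 15104 genes with an FPKM value per gene and group, combined over both replicates, and their q-value for each pair of IP groups. How replicates were combined, columns scaled and q-values scaled is not given in the sources used here, and depth is unknown.

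Python 3.11.15 with pandas 2.3.3, numpy 2.4.6, scipy 1.17.1 and matplotlib 3.10.9 was used. A gene was kept if any group reached 1 FPKM, which left 11181 genes and 92 of 92 members. A pseudocount of 1 FPKM was added before log2 ratios were taken. IP pairs were called at the authors' q under 0.05, with the direction from FPKM. IP against Input and Input pairs were called at 2-fold, without genes listed at 0 in a compared group. Ratios of copies and shares of the FPKM sum were computed within a group. The calling was checked on simulated data. A fit per library had been planned and could not be run, since the table holds no libraries, so group values and the authors' q-values were used.

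The members and lists were chosen with earlier results of these data known. Genes were named by rule: RpL10Ab, the 6 highest and 6 lowest members by mean FPKM, the 5 highest and 5 lowest ratios in each IP comparison (from 5 FPKM upwards, or passing q), duplicated genes, stalk proteins, ubiquitin fusions and RpS6, and from other lists the 3 highest and 2 most changed genes. The text uses a selection, and 1 member is counted but not reported here by name. Members named from their value relative to the family, such as RpL8, RpL11 and RpS30, and the neighbours Jra and tau were chosen after their values were seen. Lists covered other ribosomal proteins, ribosome assembly, regulators, translation factors, mitochondrial ribosomal proteins, and markers of neurons, glia, fat body, muscle and germ line. Of 5 other ribosomal protein symbols, 3 are older names of RpS2, RpS21 and RpL10. Gene lengths and overlaps came from a later annotation (BDGP6), and no coordinates were used.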

Additional observations from a re-analysis of the deposited data

Results flagged for a closer look

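In 67 of the 77 abundant members the fat body IP was above its Input while the neuron IP and the glia IP were both below theirs. The cell types thus differed in direction for these genes, and the difference was not tested, because each group has 1 combined value. The count was 77 under median scaling and 58 under total scaling, where 58 of 77 members were above Input in fat body. The share of all genes with this pattern was not computed, so the count cannot be set against one. Over the 5599 genes that reached 5 FPKM in all groups, the deposited median log2 IP/Input was 0.82 in fat body, 0.40 in neuron and 0.49 in glia.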

How the results depend on the processing

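Of 68 recomputed counts of members, over 12 kinds of count, 43 stayed within 1.5 times of the reported one. The counts between fat body IP and the other IPs were among those under every alternative run, but the scalings kept the authors' q-values and could change only a direction. With the scale changed, members at least 2-fold higher in the fat body IP than in Input numbered 4 under median scaling and 0 under total scaling, against 81 as deposited, and those lower numbered 1 and 2, against 0. In neuron, the 2 higher members became 0 under median and 0 under total scaling, and the 0 lower members became 17 and 17. In glia, the 2 higher members became 1 and 1, and the 1 lower member became 9 and 37. Among all 11117 genes compared in fat body, those at least 2-fold lower numbered 2986 under median and 4834 under total scaling. The higher ones numbered 1115 and 467. Among 11119 genes in neuron the lower ones numbered 2781 and 2796 and the higher ones 771 and 791. Among 11116 genes in glia the lower ones numbered 3541 and 4083 under these scalings and the higher ones 1064 and 799. These scalings shift each fat body ratio by -0.87 and -1.49 on the log2 scale, each neuron ratio by -0.59 and -0.57 and each glia ratio by -0.51 and -0.75. Over all genes, the higher share of calls was 73.0% in fat body as deposited, 27.2% under median and 8.81% under total scaling, with 59.2%, 21.7% and 22.1% in neuron and 48.7%, 23.1% and 16.4% in glia. Between fat body IP and glia IP it was 71.0%, 69.7% and 50.5%.

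A pseudocount of 0.1 FPKM gave 2 lower members in neuron and 6 in glia, and one of 5 FPKM gave 0 higher in neuron and 0 lower in glia. With at least 5 FPKM in every group, 1 was higher in neuron, 0 lower in glia, and 0 passed q as lower in neuron IP than in glia IP, as with q under 0.01 (0, against 2). At 1.5-fold, 5 were higher and 6 lower in neuron and 8 lower in glia. Against the mean of the other Inputs, chosen after seeing the data, glia had 1 higher and 0 lower. Apart from the scalings, whose shift is given, the cause was not tested. Of 84 copy ratios 41 moved by over 1.5-fold with a pseudocount of 0.1, all 41 in low members, and 0 changed sign. A pseudocount cannot reverse the order of copies, so a change of sign was not possible. The relative values moved by less than 1.5-fold in 24 of 24. They belong to members with at least 500 FPKM, where a pseudocount of this size changes little. No paired analysis was possible because the table holds 1 value per group, and for the same reason fits per library, with or without a replicate block, and leaving out a replicate were not run. Depth is unknown, so values of a few FPKM or less carry an unknown counting error.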
